A study of Trichechus manatus latirostris with 11 samples.

Results

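Genes of the extracellular matrix were examined in buffy coat RNA of Florida manatees, *Trichechus manatus latirostris*. The members were chosen by name: collagen chains, laminin subunits, fibrillins and fibulins, ADAMTS proteases, TIMPs, CCN proteins, fibronectin (FN1), versican (VCAN), tenascin C (TNC) and the genes whose symbol begins with LOX. The rule found 50 rows of the expression table, which carried 49 of the 9641 gene symbols that could be assigned, because VCAN had 2 rows. The buffy coat is the layer of white blood cells and platelets that forms when blood is centrifuged. RNA-seq compared 4 adult manatees under treatment for red tide illness at Lowry Park Zoo with 7 adult control manatees. The paper states that 2 of the 4 were sampled as they came in and 2 after a week of treatment. Which libraries are theirs is not known. Of the controls, 2 came from a health assessment in the Indian River Lagoon, 4 from one at Crystal River, and 1 was at Lowry Park Zoo recovering from pneumonia. Ribosomal and globin RNA was depleted in all libraries. Place, time of sampling and care differed along with red tide exposure, and their effects cannot be told apart from it.

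The extracellular matrix is the protein scaffold around cells. Collagens form its fibrils and networks, laminins build the basement membrane, fibrillins and fibulins make up microfibrils and elastic fibres, and fibronectin links the matrix to integrins on cells. Matricellular proteins such as tenascin C and the CCN proteins are secreted into the matrix and act mainly on cell signalling. ADAMTS proteases cut procollagens and proteoglycans, TIMPs inhibit metalloproteinases, and lysyl oxidases crosslink collagen and elastin. Fibroblasts, endothelial cells and other tissue cells are the main makers of most of these proteins, while leukocytes make a few of them, versican and TIMP1 among them.

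The values are group means of normalized counts, that is, of reads divided by a size factor that scales each library for depth. The table gave a mean over 4 libraries and a mean over 7 libraries, and no value of a single library. The columns of these means do not name their group. That the 4 libraries are those of red tide and the 7 those of the controls rests on the numbers of manatees alone, and the direction of every ratio with respect to red tide depends on it, so means are named here by their number of libraries. For weakly expressed genes the reads of each library could be recovered from the means, because each read adds a fixed amount to a mean. Size factors of 1.56, 1.03, 0.620 and 0.372 were found in the 4-library group and of 0.702 to 1.73 in the 7-library group. Libraries are named by these size factors, and values of the 4 are given from the highest factor to the lowest, since they could not be linked to single manatees. The 2 libraries with the size factors of 0.620 and 0.372 stood apart. They held the highest normalized count of the 4 for 39 of the 45 member rows whose 4-library reads were recovered (86.7%), against 65.2% of all 10185 such rows. Among rows at least 2-fold higher in the 4 libraries the shares were closer, 92.9% of 28 members and 83.6% of 3070 rows. Results are therefore also given with the other 2 libraries alone, those of higher size factor (1.56 and 1.03). In bulk RNA, fewer cells of a type and less RNA per cell cannot be told apart.

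Most matrix genes had a higher mean in the 4 libraries. The 4-library mean exceeded the 7-library mean in 43 of the 50 rows, by at least 2-fold in 30 (60%), against a background of 23.9% of all 15298 rows. A 7-library mean at least 2-fold higher was seen in 1 row, ADAMTS17, against 10.4% of all rows. A 4-library mean at least 10-fold higher was found in 16 rows (32%), against 5.52% of all rows. The median log2 ratio of the members was 1.31, with a middle 50% from 0.51 to 3.87, and that of all rows was 0.14, with a middle 50% from -0.44 to 0.94. The group means carry no spread between manatees, so these counts have no test.

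**Figure D1:**
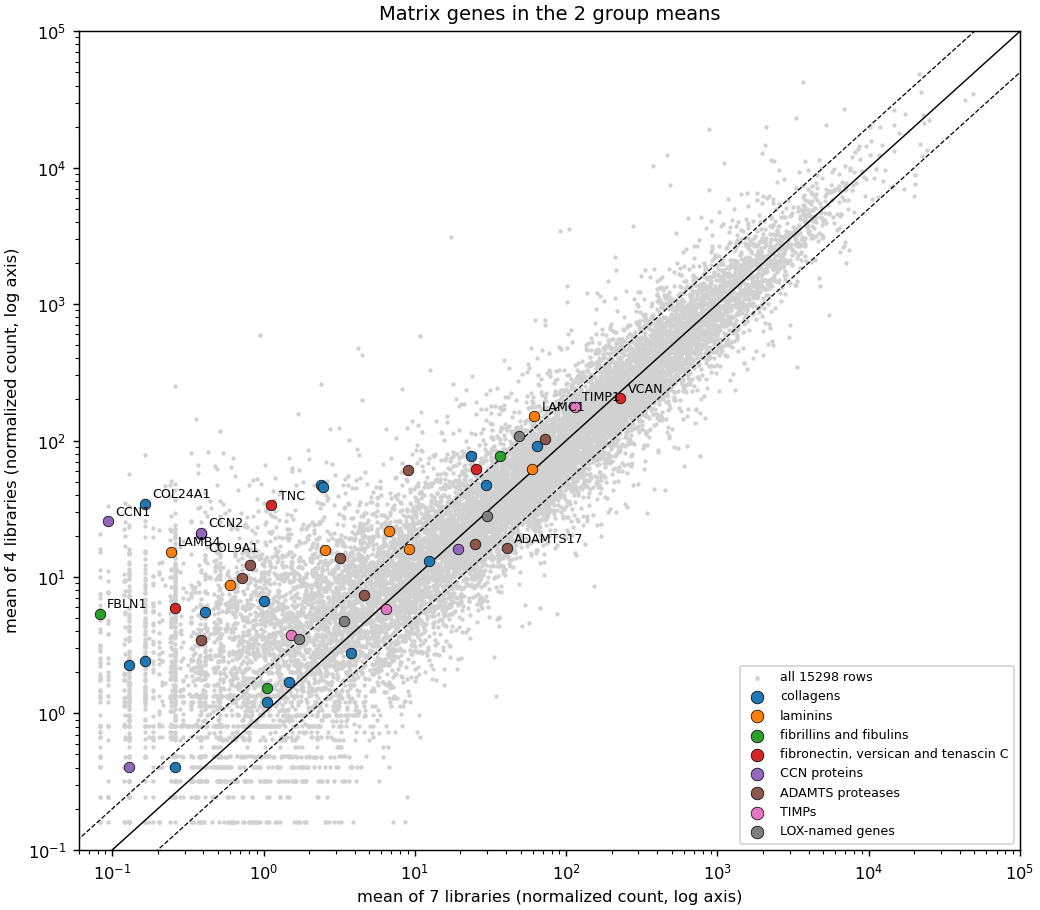
Mean normalized count of each table row in the 7 libraries (horizontal) and the 4 libraries (vertical), both on log axes, with all 15298 rows in grey and the 50 matrix rows coloured by class. The solid line marks equal means and the dashed lines a 2-fold difference. The rows of COL24A1, CCN1, LAMB4, FBLN1 and TNC stand far above the upper dashed line at 7-library means near or below 1, while VCAN, TIMP1 and LAMC1 lie nearer to equality.

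The size of the ratio went with the level of the gene. Of the 27 members with a mean normalized count under 10 over all 11 libraries, 19 were at least 2-fold higher in the 4 libraries (70.4%, background 47.3% of 5073 rows). Of the 23 members with a mean of at least 10, 11 were (47.8%, background 12.3% of 10225 rows). The median log2 ratio was 2.73 in the weaker members and 0.81 in the stronger ones, beside 0.87 and -0.01 over all rows of the same levels. Of the 16 rows with a 10-fold or larger ratio, 14 had 10 or fewer reads in the 7 libraries together, and 10 had 3 or fewer. Their ratios therefore rest on few reads in the 7 libraries. With the libraries of size factor 1.56 and 1.03 alone, 21 of 45 members were at least 2-fold higher than the 7-library mean (46.7%), against 18.1% of all 10185 rows. In that comparison 9 members were at least 2-fold lower (20.0%, against 27.8% of all rows), and 5 had no read in the 2 libraries.

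The class medians were above that of all rows in each of the 8 classes. The collagens had 9 of 16 rows at least 2-fold higher in the 4 libraries, and the laminins 5 of 7. The fibrillins and fibulins had 2 of 3 rows, the CCN proteins 3 of 4, and the rows of fibronectin, versican and tenascin C 3 of 4. Of the remodelling genes, the ADAMTS proteases had 5 of 9 rows, the TIMPs 1 of 3 and the LOX-named genes 2 of 4. Over all rows this share was 23.9%, with 47.3% among rows under a mean of 10 and 12.3% among the others. Such weaker rows were 9 of the 16 collagens, 3 of the 7 laminins and 5 of the 9 ADAMTS proteases. The median log2 ratio was 2.23 in collagens, 1.69 in laminins, 1.08 in fibrillins and fibulins, 2.10 in ADAMTS proteases and 3.71 in CCN proteins. It was 0.64 in TIMPs and 0.75 in LOX-named genes, the classes without any row at 10-fold. Between classes these medians were not tested, and the smaller classes hold 3 or 4 rows.

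**Figure D2:**
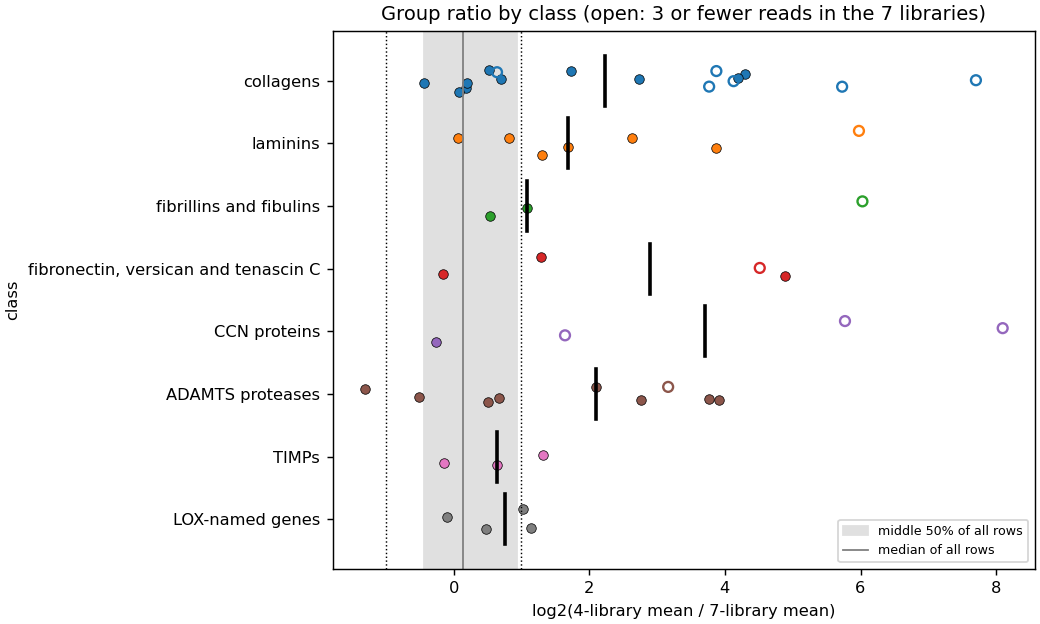
Log2 of the 4-library mean divided by the 7-library mean for the 50 matrix rows by class, each point a row, with the class median as a vertical bar and dotted lines at a 2-fold difference. Open points have 3 or fewer reads in the 7 libraries, and the grey band spans the middle 50% of all rows. Most points with the highest ratios are open, and TIMPs and LOX-named genes reach a log2 ratio of 1.32 at most.

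Single libraries could be compared for the 31 members whose reads were recovered in all 11. A two-sided exact permutation test of the mean log2(normalized count + 1) over all 330 assignments of the libraries gave an unadjusted p under 0.05 for 16 of the 31 (51.6%), each higher in the 4 libraries, against a background of 17.4% of the 4629 rows tested. This count is a description only, because recovery reached 4-library means of 110 but 7-library means of 7 only. Of the 16, 12 had a 4-library mean over 7 and entered the test only through these unequal limits. No member passed that threshold in the other direction (background 0.929%). After Benjamini-Hochberg adjustment over the 4629 rows no row had an adjusted p under 0.05, although 849 had an unadjusted p under 0.05. The 16 members had adjusted permutation p-values from 0.148 to 0.255. With both limits at 6, 3 of 15 members had an unadjusted permutation p under 0.05, against 5.92% of 3058 rows. The p-values of single genes given below stand under the same limit. In normalized count all 4 libraries lay above all 7 in 2 of the 31 members, FBLN1 and FN1 (6.45%, background 2.81%). In both genes the nearest libraries of the groups had the same number of reads and differed by size factor only. Leaving out the library of size factor 1.03, 0.620 or 0.372 lowered the 16 to 8, 7 and 5, or 25.8%, 22.6% and 16.1% of the members, while the share over all rows fell to 11.3%, 7.54% and 8.60%. With the libraries of size factor 1.56 and 1.03 alone it was 2 (6.45%), near the 4.15% of all rows, and the smallest p that the exact test can give is then 0.0278.

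**Figure D3:**
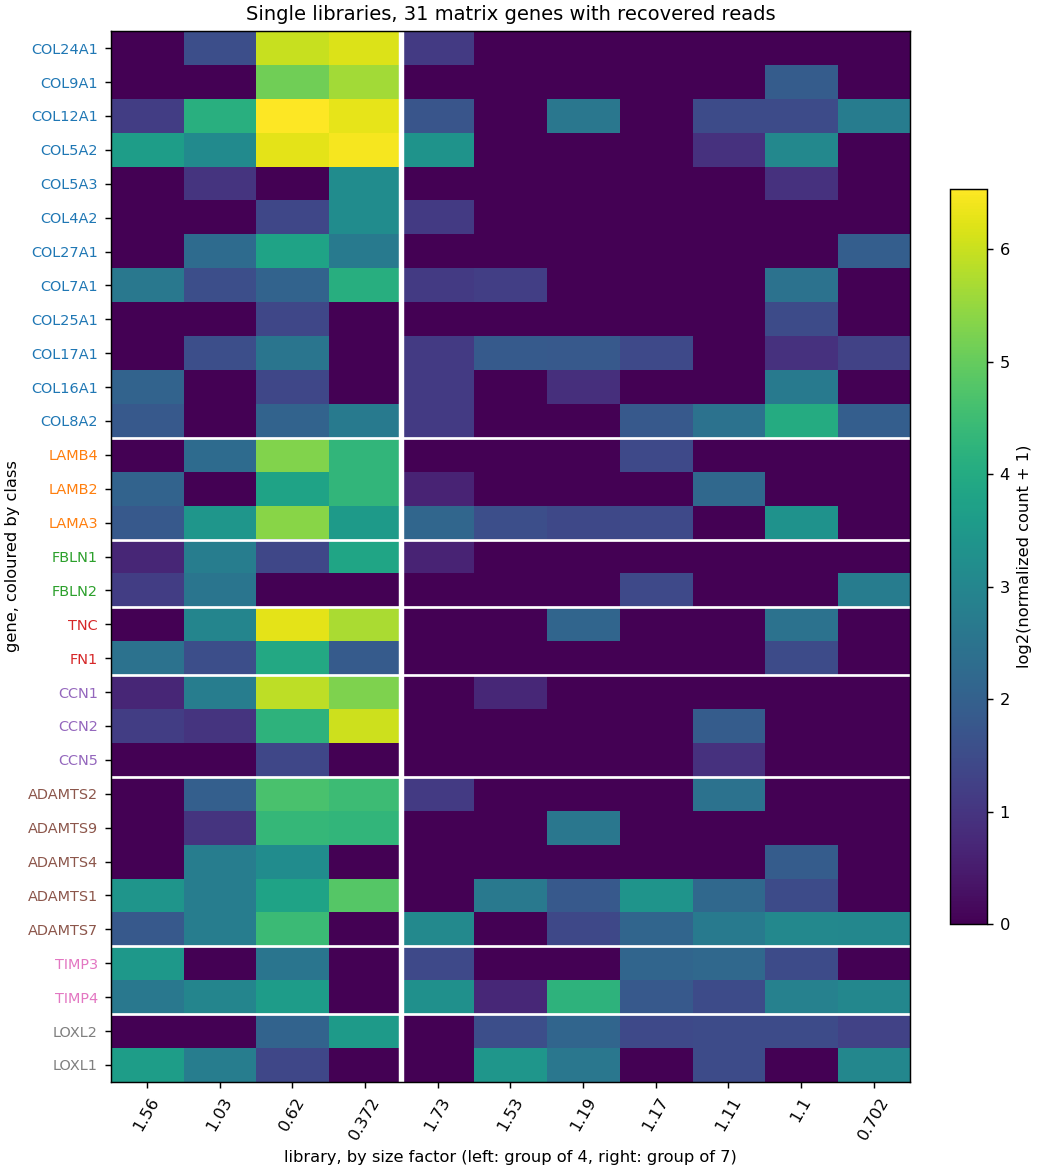
Heat map of log2(normalized count + 1) for the 31 matrix genes with reads recovered in all 11 libraries, with genes in rows by class and libraries in columns labelled with their size factors, the 4-library group left of the white line. The brightest cells are those of COL12A1, COL5A2, COL24A1, TNC and CCN1 in the columns of size factor 0.620 and 0.372, and most cells on the right are dark, since 21 of the 31 genes had no read in 4 or more of the 7 libraries.

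Among the collagens, COL24A1, a minor fibrillar collagen, had the largest ratio. From the highest to the lowest size factor, the 4 libraries had normalized counts of 0, 1.95, 62.9 and 72.6. Of the 7 libraries, 6 had no read and the other had 2. The mean of 34.4 ± 38.8 (SD, n = 4) was 208 times the 7-library mean (exact permutation p = 0.0242). The 95% counting interval of this ratio was 57.6 to 1719. That interval, like the others given for 1 to 3 reads in the 7 libraries, covers the counting error of those reads only. It takes the 4-library mean as fixed, and each read at the weight of the library where it fell. Rows without a read in a group are absent from the table. The interval does not allow for this, so its limits are approximate. Without the library of size factor 0.372 the ratio was 131, and with the libraries of size factor 1.56 and 1.03 alone it was 5.90.

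COL12A1, a collagen that binds to the surface of fibrils, had normalized counts of 1.28, 16.5, 91.9 and 78.0 in the 4 libraries and a median of 1.81 with a highest value of 5.70 in the 7. The groups overlapped, because the library of size factor 1.56 lay below the median of the 7 libraries. The 4-library mean was 19.7 times the other (46.9 ± 44.7 against 2.38 ± 2.24, SD, n = 4 and 7, exact permutation p = 0.0212). COL5A2, the second chain of type V collagen, which sits inside type I fibrils, had 11.5, 7.79, 75.8 and 86.1 in the 4 libraries. In the 7 libraries it reached 9.25, with no read in 4 of them, and the ratio was 18.2 (exact permutation p = 0.00909). The lowest of the 4 libraries was below the highest of the 7 for COL5A2. COL12A1 was 3.75-fold and COL5A2 3.89-fold higher than in the 7 libraries with the libraries of size factor 1.56 and 1.03 alone.

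COL7A1, which forms the anchoring fibrils of skin, had 5.13, 1.95, 3.22 and 16.1 in the 4 libraries and at most 4.53 in the 7. Its ratio of 6.62 (exact permutation p = 0.0152) was 3.44 without the library of size factor 0.372 and 3.55 with the 2 libraries of higher size factor alone. COL27A1, a fibrillar collagen of cartilage, was lower throughout, with 14 reads in the 4 libraries and 2 in the 7. Its ratio of 13.6 had a counting interval of 3.77 to 112 (exact permutation p = 0.0242) and was 7.60 without the library of size factor 0.620 and 4.78 with the 2 libraries of higher size factor alone.

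The other collagens differed in how far the groups separated. COL9A1, a cartilage collagen chain, had no read in the libraries of size factor 1.56 and 1.03 and 33.8 and 48.4 normalized counts in the others. It had 3 reads in 1 of the 7 libraries, for a ratio of 53.0 (interval 18.1 to 257), and the exact permutation p was 0.109. Without the library of size factor 0.372 its ratio was 29.1. COL4A2, of the basement membrane, and COL5A3 had 4 reads each in the 4 libraries, and their ratios of 14.7 (interval 4.06 to 121) and 17.5 (interval 3.14 to 691) fell to 3.25 and 2.51 without the library of size factor 0.372. In the 2 libraries of higher size factor COL4A2 had no read and COL5A3 had 1. COL19A1 was 3.31-fold higher in the 4 libraries (77.5 ± 46.5 against 23.4), with 64.1, 38.9, 145 and 61.9 in the single libraries, and it stayed over 2-fold with the libraries of size factor 1.56 and 1.03 alone. COL11A1 had the highest collagen mean on this scale, which is not divided by gene length, and COL11A1 showed 70.6, 69.1, 140 and 86.1 in the 4 libraries for a ratio of 1.43, or 1.09 with the 2 libraries of higher size factor alone. COL9A3 had means of 13.0 and 12.4. COL8A2 was the only collagen row with a higher 7-library mean (2.79 ± 2.22 against 3.78 ± 5.37, exact permutation p = 0.973).

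Laminins are trimers of an alpha, a beta and a gamma chain, and LAMC1 is the gamma chain of most of them. LAMC1 had the highest laminin mean, 151 in the 4 libraries against 61.5 in the 7, a ratio of 2.46, at a level where single libraries could not be recovered. LAMB1, the common beta chain, had 3.85, 17.5, 30.6 and 35.0 in the 4 libraries, and its mean of 21.7 ± 14.0 was 3.22 times the 7-library mean of 6.75. The libraries of size factor 1.56 and 1.03 alone gave 1.58 times that mean.

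LAMB4 was the laminin with the largest ratio. It had 0, 3.89, 38.7 and 18.8 normalized counts in the 4 libraries and 2 reads in 1 of the 7, a ratio of 63.0 with an interval of 17.4 to 520 (exact permutation p = 0.0242), which became 31.1 without the library of size factor 0.620 and 7.99 with the 2 libraries of higher size factor alone. LAMB2 had 3.21, 0, 12.9 and 18.8 in the 4 libraries and no read in 5 of the 7 (ratio 14.6, exact permutation p = 0.0455), and without the library of size factor 0.372 its ratio was 8.96, and with the 2 libraries of higher size factor alone 2.68. LAMA3, the alpha chain of epithelial laminin, had 2.57, 9.74, 40.3 and 10.8 against a median of 1.71 and a highest value of 9.05. The ratio of LAMA3 was 6.21 (exact permutation p = 0.0303) and became 3.01 without the library of size factor 0.620 and 2.41 with the 2 libraries of higher size factor alone. LAMB3, a beta chain of the same laminin, had means of 62.2 and 59.5, a ratio of 1.05. With the libraries of size factor 1.56 and 1.03 alone LAMB3 stood at 0.583 of the 7-library mean.

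FBLN1, fibulin 1, was present in each of the 4 libraries, with 1, 6, 1 and 5 reads and normalized counts of 0.641, 5.84, 1.61 and 13.5. In the 7 libraries it had 1 read in all, at 0.578. The groups did not overlap in normalized count, but the nearest values, 0.641 and 0.578, were 1 read each. They differed by size factor only. The ratio was 65.2, with an interval of 11.7 to 2577 (exact permutation p = 0.00303, the smallest that 330 assignments can give, adjusted p = 0.148). Leaving out the library of size factor 0.372 gave 32.7, and with the libraries of size factor 1.56 and 1.03 alone 39.3.

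FN1, fibronectin, showed the same separation. Its 4 libraries had 7, 2, 9 and 1 reads, or 4.49, 1.95, 14.5 and 2.69 normalized counts. Only 2 reads, in 1 library at 1.81, were found in the 7. The lowest of the 4, at 1.95, also had 2 reads, and another of the 4 had 1 read. The separation thus rested on the size factors. The ratio was 22.8 with an interval of 6.32 to 189 (exact permutation p = 0.00303, adjusted p = 0.148). It was 11.8 without the library of size factor 0.620 and 12.4 with the libraries of size factor 1.56 and 1.03 alone. For FBLN1 and FN1 the libraries of higher size factor thus contributed to the difference. FBN1, fibrillin 1, the main protein of microfibrils, had a higher level, with 74.4, 47.7, 90.3 and 96.8 in the 4 libraries and a mean of 36.5 in the 7, a ratio of 2.12 that was 1.67 with the 2 libraries of higher size factor alone. FBLN2 had 7 reads in the 4 libraries and 6 in the 7 (exact permutation p = 0.724).

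TNC, tenascin C, a matricellular protein of wounds and developing tissue, had 0, 6.81, 75.8 and 51.1 normalized counts in the 4 libraries. It had no read in 5 of the 7 libraries and at most 4.53 in the rest. The ratio was 29.7 (33.4 ± 36.2 against 1.13 ± 1.95, SD, n = 4 and 7, exact permutation p = 0.0273), and 17.2 without the library of size factor 0.620. With the 2 libraries of higher size factor alone the ratio of TNC was 3.03. The library of size factor 1.56 was at 0, as were most of the 7 libraries.

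Versican, a large proteoglycan that monocytes also make, had 2 rows for overlapping transcripts of 1 gene, so its reads may have been divided between them and the values of each are uncertain. The row of record XM_004388839 had the highest mean of all members, 205 in the 4 libraries and 228 in the 7, a ratio of 0.897. The row of XM_004388838 had 61.6 ± 23.6 against 25.3, a ratio of 2.44, or 3.08 with the 2 libraries of higher size factor alone. Unlike most members, this row was highest in the library of size factor 1.03 (93.5), followed by 62.2 at size factor 1.56, 53.8 at 0.372 and 37.1 at 0.620.

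CCN1 (also named CYR61), a matricellular protein and immediate early gene, had the largest ratio of all 50 rows. Its 4 libraries held 1, 6, 36 and 14 reads, or 0.641, 5.84, 58.0 and 37.7 normalized counts. A single read, at 0.654, was found in the 7 libraries, which lay just above the lowest of the 4. The ratio was 274 with an interval of 49.1 to 10806 (exact permutation p = 0.00606, adjusted p = 0.173). It was 158 without the library of size factor 0.620 and 34.7 with the libraries of size factor 1.56 and 1.03 alone. The 4-library mean was thus above the 7-library mean each time, but the size of the ratio was set by a single read in the 7.

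CCN2 (also named CTGF), a matricellular protein that TGF-beta raises in fibroblasts, had 1.28, 0.974, 17.7 and 64.6 in the 4 libraries and 3 reads in 1 of the 7. Its ratio of 54.6 (interval 18.7 to 265, exact permutation p = 0.00909) became 17.2 without the library of size factor 0.372 and 2.91 with the libraries of size factor 1.56 and 1.03 alone. Of the other CCN genes, CCN5 had 1 read in each group, and CCN6 had 12.8, 10.7, 19.3 and 21.5 in the 4 libraries, with a mean of 16.1 ± 5.15 against 19.2 in the 7 and a ratio of 0.613 with the 2 libraries of higher size factor alone.

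**Figure D4:**
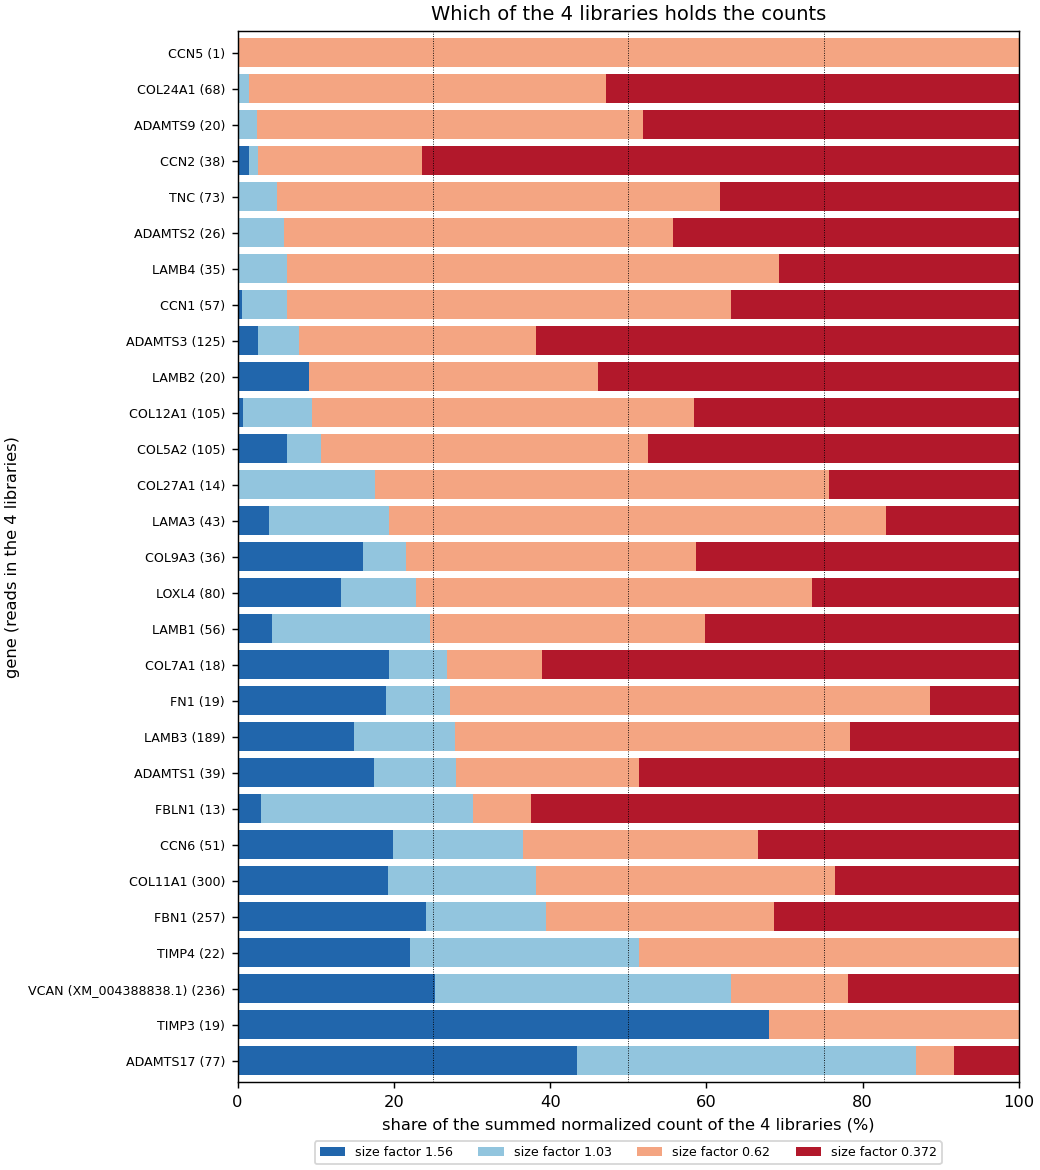
Share of the summed normalized count of the 4 libraries (%) that each library held, for the 29 named matrix rows with recovered 4-library reads, with the number of reads after each name. Bars are ordered by the joint share of the libraries of size factor 0.620 and 0.372, which is over 90% for CCN1, CCN2, COL24A1 and TNC and under 40% for versican, TIMP3 and ADAMTS17.

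The ADAMTS proteases divided into rows with few reads in the 7 libraries and rows at higher levels. ADAMTS1, which cuts versican and aggrecan, had 9.62, 5.84, 12.9 and 26.9 in the 4 libraries against a median of 2.52 and a highest value of 9.39 in the 7 (ratio 4.29, exact permutation p = 0.0212). ADAMTS1 was 2.40-fold higher with the libraries of size factor 1.56 and 1.03 alone. ADAMTS2, a procollagen N-proteinase, had 0, 2.92, 24.2 and 21.5 against 7 reads in 2 of the 7 libraries (ratio 15.0, exact permutation p = 0.0455), and its ratio with the 2 libraries of higher size factor alone was 1.80, under 2-fold. ADAMTS9 had 0, 0.974, 19.3 and 18.8 against 6 reads in 1 of the 7 (ratio 13.6, exact permutation p = 0.0455), and was below the 7-library mean, at 0.677 of it, with the libraries of size factor 1.56 and 1.03 alone.

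ADAMTS3, a related procollagen protease, had 6.41, 12.7, 74.1 and 151 in the 4 libraries. Its mean of 61.0 ± 67.2 was 6.78 times the 7-library mean of 8.99, and 3.46 times without the library of size factor 0.372. With the libraries of size factor 1.56 and 1.03 alone its ratio was 1.06, so that ratio rested on the other 2 libraries. ADAMTS17 was the member at least 2-fold higher in the 7 libraries, with 28.2, 28.2, 3.22 and 5.38 in the 4 and means of 16.3 ± 13.8 and 40.4, a ratio of 0.403, or 0.699 with the 2 libraries of higher size factor alone. Its low values were those of the libraries of size factor 0.620 and 0.372, the reverse of the usual order. ADAMTS6, with the highest mean of the class, had 103 and 72.1.

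TIMP1, the TIMP that leukocytes and platelets carry, had means of 177 and 114, a ratio of 1.56. TIMP3, which binds to the matrix, had 10.3, 0, 4.84 and 0 in the 4 libraries and a ratio of 2.50, which was 1.07 without the library of size factor 1.56 (exact permutation p = 0.591). TIMP4 had 5.81 ± 4.66 against 6.39 ± 5.78 (SD, n = 4 and 7, exact permutation p = 0.833). Of the lysyl oxidase-like genes, LOXL3 had means of 107 and 48.9, a ratio of 2.19, and LOXL4 of 27.9 and 29.8. The ratio of 2.03 for LOXL2 became 0.623 without the library of size factor 0.372, and LOXL1 was at 11.5, 5.84, 1.61 and 0 in the 4 libraries with a ratio of 1.40.

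Other matrix genes were counted from fixed lists. Of 17 other matricellular genes, 9 rows were measured, 5 of them (55.6%) at least 2-fold higher in the 4 libraries and none at least 2-fold lower, with a median log2 ratio of 1.38. Of these 9 rows 6 had a mean under 10, where 47.3% of all rows were at least 2-fold higher. Among rows with a mean of at least 10 that share was 12.3%. No single background share therefore applies to the list, and the count was not tested. THBS1, thrombospondin 1, which platelets store and release, had means of 19820 and 2099, and SPARC, a collagen-binding protein that platelets also hold, had 9.86 and 2.95. Of 37 other structural genes, 12 rows were measured, with 6 (50%) at least 2-fold higher, none at least 2-fold lower, 3 lower by less, and a median of 1.09. Of these 12 rows 8 had a mean under 10, so the backgrounds of 47.3% and 12.3% both apply to parts of this list. This count was not tested either. The list included HSPG2, the basement membrane proteoglycan perlecan, with means of 10.9 and 0.387, the latter from 3 reads, and NID1, nidogen 1, at 13.1 and 2.05.

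Of the 17 rows of enzymes and chaperones that make and crosslink collagen, 5 were at least 2-fold higher in the 4 libraries (29.4%) and 2 at least 2-fold lower (11.8%). Over all rows these shares were 23.9% and 10.4%. The median log2 ratio was 0.09, near the 0.14 of all rows. SERPINH1, the collagen chaperone HSP47, had means of 12.6 and 11.2. The matrix metalloproteinases went both ways, with 6 of 15 rows at least 2-fold higher in the 4 libraries and 4 at least 2-fold higher in the 7. Of these 15 rows 9 had a mean under 10, where 47.3% of all rows were at least 2-fold higher in the 4. For the stronger rows that background was 12.3%, and the count of 6 was not tested. MMP1, interstitial collagenase, had means of 46.1 and 0.222, the latter from 2 reads, while the neutrophil enzymes MMP9 and MMP8 had 76.5 and 131 in the 4 libraries and 762 and 380 in the 7.

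Markers of other cells moved between the groups as well. All 4 measured fibroblast markers of the 13 listed, PDGFRA, PDGFRB, PRRX1 and THY1, were at least 2-fold higher in the 4 libraries, with summed means of 32.0 and 10.7. Each had a mean under 10, where 47.3% of all rows were at least 2-fold higher. In the 4 libraries, from the highest to the lowest size factor, PRRX1 had 0, 0, 18 and 12 reads. PDGFRB had 0, 1, 6 and 0 reads, THY1 0, 2, 0 and 2, and PDGFRA 4, 12, 8 and 8. The ratio of PRRX1 thus rested on the 2 libraries of lower size factor, and those of PDGFRB and THY1 on few reads. Ratios with the 2 libraries of higher size factor alone were not calculated for these markers. Of 12 endothelial markers 5 were measured, 3 of them at a mean under 10, with 2 higher and 1 lower by 2-fold and sums of 532 and 331. Of 6 smooth muscle markers 2 were measured, with 1 at least 2-fold higher and sums of 8.15 and 3.54. Of 10 epithelial markers 3 were measured, with 2 at least 2-fold higher, none at least 2-fold lower and sums of 25.6 and 28.7. These sums include KRT19 at 11.6 and 23.0. In each of these 2 lists 2 rows had a mean under 10. The table holds only rows with reads in both groups, and only 65.9% of its rows could be given a symbol. Absence of a marker could therefore not be read from it. The 6 measured of 11 platelet markers, TUBB1, ITGB3, ITGA2B, GP9, GP1BB and GP1BA, were all higher in the 4 libraries, 5 of them by 2-fold, with sums of 15280 and 4429. Of the 7 measured of 13 neutrophil markers, 6 were at least 2-fold higher in the 7 libraries, with sums of 2113 and 12122. Over all rows 23.9% were at least 2-fold higher in the 4 libraries and 10.4% in the 7. Monocyte markers (8 rows for 10 genes) had 2 rows at least 2-fold higher and 2 lower, lymphocyte markers (4 of 12 measured) 1 lower, and pan-leukocyte markers (4 of 6 measured) none, with sums of 13454 and 10142. The part of these cells in the matrix result was not tested.

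**Figure D5:**
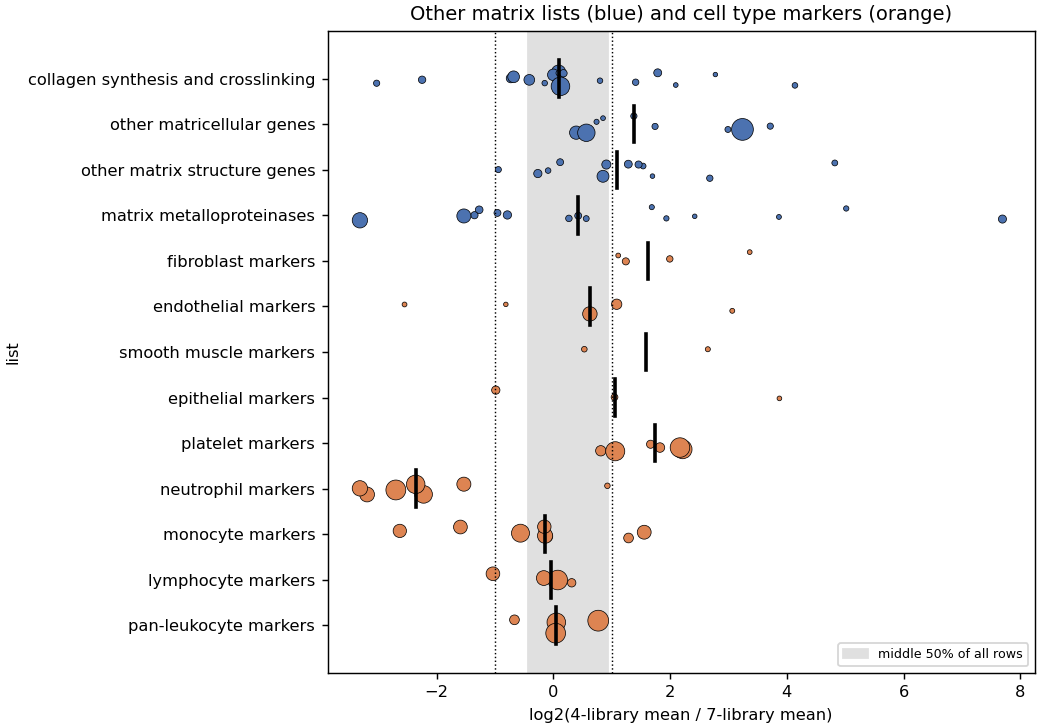
Log2 of the 4-library mean divided by the 7-library mean for the rows of 4 other matrix lists (blue) and 9 lists of cell type markers (orange), each point a row whose area grows with its mean, with the list median as a bar. Dotted lines mark a 2-fold difference and the grey band the middle 50% of all rows. Platelet and fibroblast markers lie to the right, 6 of 7 neutrophil markers to the left, and the collagen synthesis genes around 0.

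Of the 96 symbols of the RefSeq annotation that match the naming rule, 47 matched no row and were not analysed here, among them COL1A1, COL1A2, COL4A1, the type VI collagens, LAMA2, LAMA4 and LOX. Such genes cannot be taken as not expressed, because only 65.9% of rows could be given a symbol. In the RefSeq gene table some members are listed side by side, COL19A1 with COL9A1 and LAMB4 with LAMB1, and CCN1 stands 2 entries from COL24A1. The median gene span was 72.1 kb in members and 24.3 kb in all rows with a symbol. Across genes, Spearman's rho of span with the log2 ratio was 0.15 over the 50 rows and -0.09 over 10080 rows, both given as a description of genes that share the same libraries.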

How the data were processed

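RNA of 11 buffy coats, 4 red tide and 7 control, was sequenced. The authors trimmed reads with Cutadapt, mapped them to TriManLat1.0 with Bowtie2, removed duplicates and kept unique alignments. For the annotation release and the counter, the sources used here give no name. The deposited values are a signal: the authors divided counts by DESeq size factors and averaged them over all libraries and per group. Columns of the authors' own comparison (fold change, its log2, p-value and adjusted p-value) were not used.

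The columns of the group means do not name their group. Their weights in the overall mean are 4 and 7 of 11 in all 15298 rows (largest relative deviation 3.3e-09). They were assigned to red tide and control by these numbers and by the order of the groups in the stored title. Records were matched without version to the RefSeq table of TriManLat1.0 (10080 rows, 65.9%, of which 1658 also matched with version). Whole reads per library were searched for 4-library means up to 110 and 7-library means up to 7, and rows with more than 1 solution were dropped, leaving 10185 of 10363 and 4644 of 4758. Tested on simulated data, the search gave 1 solution for 98.3% and 98.8% of rows, of which 100% were true. The simulated means were built with the size factors found here, so this did not check the factors themselves. Library totals are unknown, and no count model was run, since rows enter by a limit on their means. Nothing says which library is which animal. A permutation p is the share of the 330 assignments of these libraries with a difference at least as large as the observed one.

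The members and lists were chosen with earlier results of these data known. Named genes were, per class, the rows with the highest mean and with the largest ratio in each direction (towards the 7 libraries, among means of at least 10 where a class has any), all CCN, TIMP, fibronectin, versican and tenascin C rows, and members with an unadjusted permutation p under 0.05, 34 rows in all. COL9A1, COL4A2, COL5A3, COL19A1, COL8A2, FBLN2, LOXL1, LOXL2 and the genes of other lists were named after their values were seen. Counting intervals are 95% Poisson intervals of the summed reads in the 7 libraries, scaled to the ratio. They are approximate, because rows without reads in a group are absent. Python 3.11.15, numpy 2.4.6, pandas 2.3.3, scipy 1.17.1 and matplotlib 3.10.9 were used. Alternatives changed the pseudocount, minimum mean, fold, record matching, test scale and libraries used.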

Additional observations from a re-analysis of the deposited data

Results flagged for a closer look

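A library far from the others of its group was looked for in 29 groups of 4 and 19 groups of 7 libraries of the named genes, by the gap to the nearest library as a share of the group's range. It was found in 14 of these 48 groups, 1 of 4 libraries and 13 of 7. The rule would mark about 1 in 20 groups of continuous values by chance, a rate that does not apply to counts that are mostly 0. A share of 1, found in 10 of the 14, means that a single library held all reads of its group, which meets the rule by construction. This was the case in the 7 libraries for ADAMTS9, CCN1, CCN2, CCN5, COL24A1, COL27A1, FBLN1, FN1 and LAMB4, and in the 4 libraries for CCN5. The share was 0.744 for ADAMTS2, 0.711 for COL7A1, 0.617 for LAMA3 and 0.840 for LAMB2, all in the 7 libraries. The normalized count of the separate library was 4.52 for ADAMTS2, 4.53 for COL7A1, 9.05 for LAMA3 and 3.61 for LAMB2.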

How the results depend on the processing

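No paired analysis was possible because the recovered libraries carry no replicate numbers. The count of 30 members at least 2-fold higher in the 4 libraries was 11 among rows with a mean of at least 10, 19 among those under 10, and 16 where records had to match with their version (21 rows). With a pseudocount of 1 it was 27, and with a 4-fold limit 21. The count of 1 at least 2-fold higher in the 7 libraries became 0 at a 4-fold limit, with version matching and for means under 10, and 9 without the libraries of size factor 0.620 and 0.372. The 16 members with an unadjusted permutation p under 0.05 became 3 with both means limited to 6, 2 without these 2 libraries (a choice made after seeing the data, like the split at under 10), and 5 to 15 when each library was left out in turn; the smallest p is then 0.00833 with 3 against 7 and 0.00476 with 4 against 6. It stayed at 16 on the normalized count itself, with a pseudocount of 0.5, with at least 10 reads over the 11 libraries, and with reads halved and rounded up. Fewer rows or libraries enter several of these alternatives by construction. The other causes were not tested. Depth limited what could be read: 13 members had 1 to 3 reads in the 7 libraries together.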
